A study of Homo sapiens with 6 samples.

Results

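Apolipoprotein A-I (APOA1, probe GI_4557320-S) and 5 other apolipoproteins were followed across 3 groups of arrays, from Caco-2 cells and from RAS-transformed derivatives of them. Caco-2 is a long-established line from a human colon tumour whose epithelial sheets resemble small intestinal absorptive cells. The rule named 7 probes by their RefSeq GI numbers, and 6 of these were among the 24350 gene probes of each array: APOA1, APOA2 (GI_4502148-S), APOC3 (GI_4557322-S), APOB (GI_4502152-S), APOE (GI_4557324-S) and APOH (GI_4557326-S). The probe for APOA4 (GI_4502150-S) was not among the probes analysed here. The array files hold GI numbers and no gene symbols, so the gene of each probe is the one the rule gives. Any further apolipoproteins on the array could not be looked up. APOA1 was chosen by its measured values, as its fitted log2 difference from control was the lowest of all tested probes in both RAS lines. Its values against control are therefore a description, with no test. The other genes were added because they belong to the same protein class.

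The samples were 2 control arrays of Caco-2 cells, 2 arrays of Caco-2 cells transformed with Ha-Ras (CacoH2) and 2 of Caco-2 cells transformed with Ki-Ras (CacoK15). Ha-Ras and Ki-Ras are isoforms of the RAS GTPases, which relay growth signals from cell-surface receptors. No group received a treatment, all were harvested before confluence in serum-containing medium, and the labels call both Ki-Ras samples and 1 Ha-Ras sample fast-growing and give that Ha-Ras sample an EMT phenotype, the shift of epithelial cells toward mesenchymal traits. Each isoform is represented by 1 line, so a difference between groups is one between cell lines, and nothing in the sources used here says how the RAS genes were introduced or which alleles they carry. The series' design calls the 2 samples of a line biological replicates without saying how they were separated, so the tests concern only these samples. The spread that the tests use is not each gene's own alone, as the fit draws it toward that of all probes tested.

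Apolipoproteins are the protein part of lipoproteins, the particles that carry cholesterol and triglycerides in blood and lymph. They are made mainly by hepatocytes and by enterocytes, and Caco-2 cells are widely used as a model of intestinal lipoprotein secretion. APOA1 and APOA2 are the main proteins of high-density lipoprotein, and APOA1 also activates the enzyme that esterifies cholesterol on these particles. APOB is the structural protein of chylomicrons and of very-low-density and low-density lipoproteins. APOC3 slows the clearance of triglyceride-rich particles, and APOE is a ligand of the low-density lipoprotein receptor family and is made by many cell types. APOH, also called beta-2-glycoprotein I, binds phospholipids and is a plasma protein of hepatic origin.

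In the RefSeq annotation APOA4, APOC3 and APOA1 are consecutive protein-coding genes on chromosome 11, with APOA5 on the other side of APOA4. APOA2 lies on chromosome 1, APOB on chromosome 2, APOH on chromosome 17, and APOE on chromosome 19 next to APOC1. The genes described here thus come from 5 chromosomes. The 250 bases before the annotated start are shown for APOA2, APOH and APOE, the 3 measured genes with a promoter window at that start in the set used. They come from RefSeq, build GRCh38.p14, and are written 5′ to 3′ on the strand of the gene, which is the minus strand for APOA2 (chr1:161223629-161223878) and APOH (chr17:66229416-66229665) and the plus strand for APOE (chr19:44905546-44905795). The set held no window at the annotated start of APOA1, APOC3 and APOB, so these are named without a sequence.
Capitals mark matches to the searched motifs on either strand.
APOA2: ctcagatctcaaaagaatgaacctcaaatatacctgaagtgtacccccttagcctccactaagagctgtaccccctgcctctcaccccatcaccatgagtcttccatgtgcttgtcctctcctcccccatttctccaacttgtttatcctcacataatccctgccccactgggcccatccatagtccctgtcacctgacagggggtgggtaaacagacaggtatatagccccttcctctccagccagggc
APOH: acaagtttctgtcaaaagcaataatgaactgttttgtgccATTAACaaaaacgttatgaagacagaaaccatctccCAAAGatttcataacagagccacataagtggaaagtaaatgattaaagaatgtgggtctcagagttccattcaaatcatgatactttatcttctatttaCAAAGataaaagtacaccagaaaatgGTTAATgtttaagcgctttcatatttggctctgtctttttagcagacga
APOE: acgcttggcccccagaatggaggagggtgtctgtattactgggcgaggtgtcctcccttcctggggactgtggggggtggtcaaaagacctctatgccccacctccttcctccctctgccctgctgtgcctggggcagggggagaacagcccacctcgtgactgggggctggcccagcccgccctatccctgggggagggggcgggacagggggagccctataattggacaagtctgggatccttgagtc

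A set of 5 short motifs were searched on both strands of these windows: CAAAG, the core of sites for the liver and gut factor HNF4; AGGTCA, one arm of nuclear receptor sites; TATAAA, the TATA box; TGANTCA, the AP-1 site; and GTTAAT, a part of the HNF1 site. The matches found do not overlap each other. APOH held CAAAG at 2 places, starting 174 and 75 bases before the start, and GTTAAT or its reverse complement at 2 places, starting 210 and 49 bases before it. No match to any of the 5 motifs was found in the windows of APOA2 and APOE, nor in that of APOA4. Over 35116 windows of the same length in the table, 42.1% held CAAAG, 6.23% GTTAAT, 12.1% AGGTCA, 10.7% TATAAA and 6.57% TGANTCA. These matches are a description of letters, and the arrays measured no binding.

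Signals are deposited as mean bead intensity on a linear scale, and a probe counts as detected on an array at a detection score of at least 0.99. Each array detected 9245 to 10192 probes, with a median of 41 or 42 beads per probe, and its lowest detected signal lay between 83.5 and 88.8. The signals of the 6 apolipoprotein probes came from 29 to 61 beads each. For tests and fold changes the signals were corrected for background and quantile normalized on the log2 scale. No table pairs the other probes with symbols, so markers of enterocytes, hepatocytes and mesenchyme, and the RAS genes themselves, could not be checked here.

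APOA1 was bright in control cells and undetected in both RAS lines. Its signal was 6282 on control array A and 8974 on control array B. It was 76.2 and 78.2 on the Ha-RAS arrays and 74.1 and 73.9 on the Ki-RAS arrays. No RAS value came near the control values, and all 4 lay below the lowest detected signal of their arrays. The mean was 7628 ± 1903 (SD, n = 2) in control, 77.2 ± 1.41 in the Ha-RAS line and 74 ± 0.141 in the Ki-RAS line. On the normalized log2 scale the levels were 12.97 ± 0.15, 4.67 ± 0.10 and 4.66 ± 0.12. Because the RAS signals were undetected, the fold is given as a bound, taken against the lowest detected level or the probe's own, whichever was higher on each RAS array. It is a bound only on the background-corrected, normalized scale and against the control mean, whose spread it leaves out. The words at least have this sense for every gene here. Without background correction the APOA1 bounds themselves were lower, 97.9-fold in the Ha-RAS line and 92.9-fold in the Ki-RAS line. The bound for APOA1 was 249-fold in the Ha-RAS line (at least 249-fold lower than control) and 220-fold in the Ki-RAS line, and the fit gave 109-fold and 110-fold when background was left in. In bulk RNA, fewer cells with the transcript and less transcript per cell cannot be told apart. The order of both RAS lines below detection carries no meaning, and their normalized values overlapped.

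**Figure D1:**
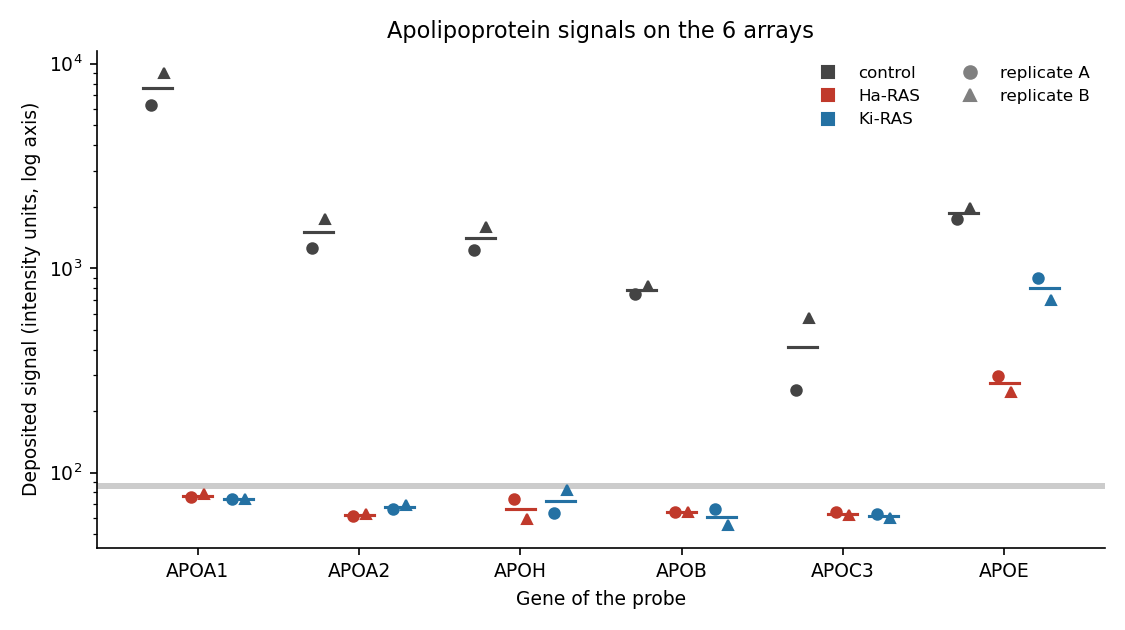
Deposited signal in intensity units (log axis) of the 6 apolipoprotein probes on each array, with circles for replicate A, triangles for replicate B and a bar at the mean of each group; the grey band spans the lowest detected signals of the 6 arrays, 83.5 to 88.8. Control values are above the band for each gene, the RAS values of 5 genes are below it, and APOE stays above it in both RAS lines.

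APOA2, the partner of APOA1 on high-density lipoprotein, followed the same pattern at a separate locus. Its signals were 1255 and 1749 on the control arrays, 61.1 and 63.1 in the Ha-RAS line, and 66.1 and 69.8 in the Ki-RAS line. Every RAS value was below detection and far from both control values. The normalized log2 level fell from 10.56 ± 0.13 (SD, n = 2) in control to 4.30 ± 0.033 in the Ha-RAS line and 4.45 ± 0.0053 in the Ki-RAS line. APOA2, APOC3, APOB and APOH passed the detection filter through the control arrays alone, so for these 4 genes the adjusted p is that of limma fitted to all 24350 probes with no filter. APOA2 was at least 46.8-fold lower in the Ha-RAS line (limma with no filter, adjusted p = 3.66e-07) and at least 41.3-fold lower in the Ki-RAS line (limma with no filter, adjusted p = 5.63e-07). With background left in, the fit gave 26.3-fold and 23.2-fold.

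APOC3, the neighbour of APOA1 on chromosome 11, was the most variable of the 6 in control cells. Its signal was 252.6 on control array A and 569.1 on control array B. The RAS signals were 64.4 and 61.8 in the Ha-RAS line and 62.7 and 60.2 in the Ki-RAS line, all undetected. Even the lower control value was well above all 4 RAS values. The normalized log2 level was 8.35 ± 0.72 (SD, n = 2) in control, 4.32 ± 0.016 in the Ha-RAS line and 4.33 ± 0.069 in the Ki-RAS line. The fall was at least 10.1-fold in the Ha-RAS line (limma with no filter, adjusted p = 6.04e-05) and at least 8.95-fold in the Ki-RAS line (limma with no filter, adjusted p = 6.44e-05). The fitted folds without background correction were 6.32 and 6.29. The fit pooled the control spread of APOC3 with the smaller spreads of its undetected RAS values. Its adjusted p therefore does not measure the control spread alone. The same holds for APOA2, whose undetected values spread less than control in both RAS lines, and for APOB, whose values did so in the Ha-RAS line.

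APOB, the scaffold of chylomicrons and low-density lipoprotein, gave 744.5 and 822.7 on the control arrays. The Ha-RAS arrays gave 64.3 and 64.2, and the Ki-RAS arrays 66.2 and 55.3. Neither RAS line detected it, and the signal of 55.3 was the lowest among the 6 apolipoproteins on any array. Its normalized log2 level was 9.57 ± 0.16 (SD, n = 2) in control, 4.34 ± 0.014 in the Ha-RAS line and 4.34 ± 0.16 in the Ki-RAS line. The fall was at least 23.7-fold in the Ha-RAS line (limma with no filter, adjusted p = 6.53e-07) and at least 20.9-fold in the Ki-RAS line (limma with no filter, adjusted p = 7.96e-07). Fitted without background correction, the folds were 13.3 and 13.6.

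APOH, the phospholipid-binding plasma protein, stood at 1226 and 1590 on the control arrays. It gave 73.9 and 59.3 in the Ha-RAS line and 63.2 and 82.4 in the Ki-RAS line. All 4 RAS values were undetected, although Ki-RAS replicate B came closest of any to the detection limit, with a score of 0.96. The normalized log2 level was 10.46 ± 0.044 (SD, n = 2) in control, 4.40 ± 0.19 in the Ha-RAS line and 4.66 ± 0.39 in the Ki-RAS line. APOH fell at least 43.8-fold in the Ha-RAS line (limma with no filter, adjusted p = 1.37e-06) and at least 38.6-fold in the Ki-RAS line (limma with no filter, adjusted p = 2.04e-06). With background left in, these came to fitted folds of 23.2 and 20.3.

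APOE, the receptor ligand, was the exception among the 6 genes: every array detected it, and its level differed between all 3 lines. Its signals were 1742 and 1965 in control, 894.6 and 699.2 in Ki-RAS, and 297.9 and 248.9 in the Ha-RAS line. The 3 pairs of values did not overlap, with control highest, Ki-RAS between and Ha-RAS lowest. The normalized log2 level was 10.92 ± 0.14 (SD, n = 2) in control, 9.66 ± 0.26 in Ki-RAS and 7.60 ± 0.11 in the Ha-RAS line. In Ha-RAS cells APOE was 9.98-fold lower than in control (95% interval 7.62 to 13.1; limma, adjusted p = 1.28e-07). In Ki-RAS cells it was 2.39-fold lower (95% interval 1.82 to 3.13; limma, adjusted p = 0.000168). The level that remained was 10.0% of control in the Ha-RAS line and 41.9% in the Ki-RAS line on this scale. With background left in, the fit gave 8.11-fold and 2.31-fold. The ratios of mean deposited signals were 6.78 and 2.33, and that of the Ha-RAS line lay below its interval. Set against each other directly, the Ha-RAS level was 4.18-fold below the Ki-RAS level (limma, adjusted p = 4.48e-06). The log2 difference was -2.06 ± 0.17 SE (95% interval -2.45 to -1.67, or 3.19-fold to 5.47-fold). With background left in, the fold between the RAS lines was 3.52. The ratio of mean deposited signals was 2.91, below that interval.

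**Figure D2:**
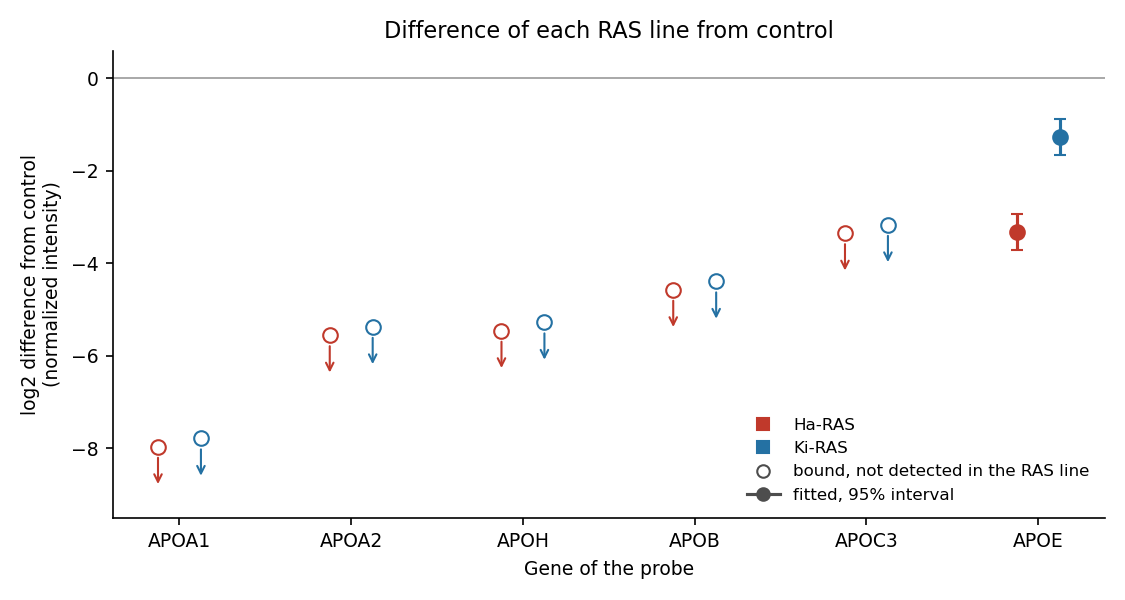
Difference from control in normalized log2 intensity for each gene, Ha-RAS in red and Ki-RAS in blue. Open circles with arrows are bounds where neither array of the RAS line detected the probe. They hold on the background-corrected scale with the control mean taken as measured, and those of APOA1 are smaller without that correction. Filled circles are fitted differences with 95% intervals. The intervals of APOE are -3.71 to -2.93 in the Ha-RAS line and -1.64 to -0.87 in the Ki-RAS line.

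Counted together, the 5 genes other than APOA1 were lower and called in the Ha-RAS line (5 of 5) and in the Ki-RAS line (5 of 5). Over all 10848 probes tested, 25.4% were called lower in the Ha-RAS line and 27.2% in the Ki-RAS line, at an adjusted p below 0.05 in limma. The median fitted log2 difference of the 5 genes was -5.24 in the Ha-RAS line and -5.23 in the Ki-RAS line, against 0.06 and 0.01 over all probes tested. Both medians of the 5 genes are fitted values of APOB, which neither RAS line detected, so they are not measured sizes. The bounds of APOB on this scale were -4.56 and -4.38. These counts and medians are descriptions: APOA2, APOC3, APOB and APOH entered the test only through their detection in control cells, which builds a difference into their passing. Both comparisons also share the control arrays. With no filter, over all 24350 probes, the same 5 genes were called lower in each RAS line. The share of all 24350 probes called lower in that fit was not computed, so this count has no share to be read against.

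Between the RAS lines, 1 of the 5 genes was called, APOE, and it was lower in the Ha-RAS line; 28.1% of all probes tested were called in that direction. APOA1, APOA2, APOC3, APOB and APOH were undetected on all 4 RAS arrays, so no fold between the RAS lines is given for them. Under cyclic loess normalization APOA2, APOB and APOH were also called lower in Ha-RAS than in the Ki-RAS line, with log2 differences of -0.55, -0.39 and -0.63 among undetected signals (limma, adjusted p = 0.0122, 0.0493 and 0.0167). Over the 16 alternatives run for these genes, loess included, the adjusted p from limma reached up to 0.698 for APOA2, 0.996 for APOB and 0.956 for APOH, and loess gave the only calls. Whatever level of these transcripts remains in the RAS lines was not measurable at this signal over background.

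The detection scores of these undetected signals all lay below the limit. A score comes from a detection p and is not a distance in signal. The 20 values of the 5 genes on the RAS arrays ran from a signal of 55.3 to 82.4 and from a score of 0.0116 to 0.96, and 0 of 20 were detected. APOA1 had scores of 0.837 and 0.939 on the Ha-RAS arrays and 0.910 and 0.750 on the Ki-RAS arrays, none of which reached the limit. The scores of APOC3 were low throughout, from 0.102 to 0.359. APOA2 scored 0.0955 and 0.241 in the Ha-RAS line and 0.572 and 0.560 in the Ki-RAS line. APOB scored 0.215 and 0.286 in the Ha-RAS line and 0.581 and 0.0116 in the Ki-RAS line. In these scores the Ki-RAS replicates of APOA1, APOC3, APOB and APOH differed more from each other than the means of both RAS lines did, and APOA2 was the exception. Among all 8990 probes detected on both control arrays, 322 (3.58%) were undetected on all 4 RAS arrays, and APOA1, APOA2, APOC3, APOB and APOH were among them.

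**Figure D3:**
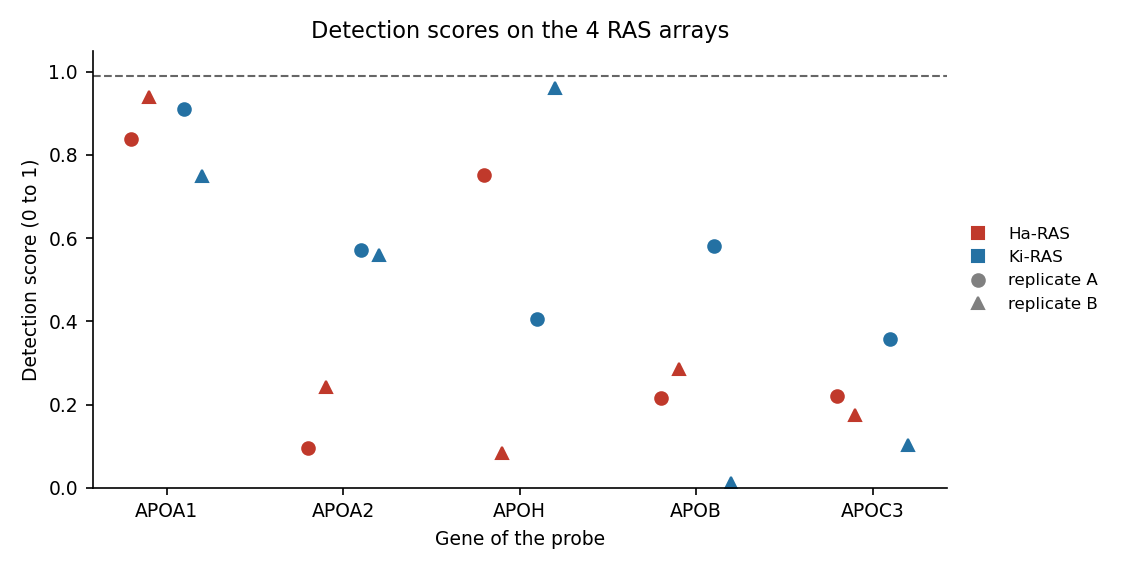
Detection score (0 to 1) of the 5 apolipoproteins that the RAS lines did not detect, for each of the 4 RAS arrays; circles are replicate A, triangles replicate B, red Ha-RAS and blue Ki-RAS, and the dashed line is the limit of 0.99. All 20 points lie below the line, with the 4 points of APOA1 between 0.750 and 0.939 and the highest point, APOH on Ki-RAS array B, at 0.96.

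The control arrays differed for some of these genes. In deposited signal all 6 were higher on control array B, by 1.11-fold for APOB to 2.25-fold for APOC3, where the median ratio over the 8990 probes detected on both control arrays was 1.16. After normalization 4 of the 6 were higher on B and APOB and APOE were lower. The normalized difference, B minus A on the log2 scale, was 1.02 for APOC3, 0.22 for APOA1, 0.19 for APOA2, 0.06 for APOH, -0.20 for APOE and -0.22 for APOB. The middle 90% of the 8990 probes lay between -0.48 and 0.51, so APOC3 alone of the 6 fell outside this range, and 99.8% of the probes had a lower value than APOC3. The difference of APOC3 between the control arrays was still smaller than its fall in either RAS line.

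**Figure D4:**
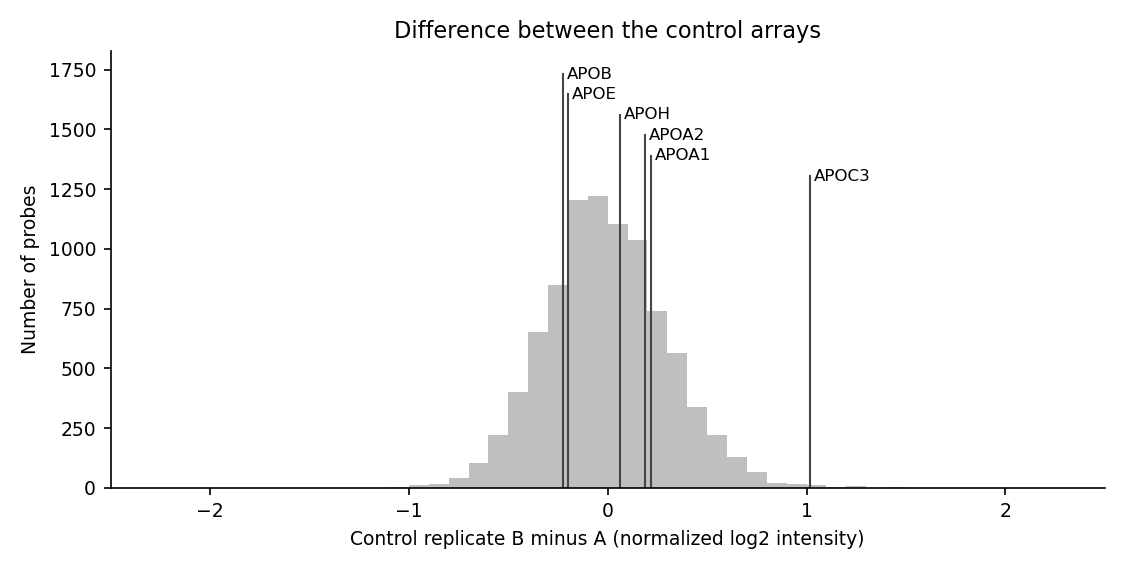
Histogram of the difference between the control arrays, B minus A in normalized log2 intensity, for probes detected on both, with vertical lines for the 6 apolipoproteins (line height carries no value). APOC3 stands at 1.02, outside the middle 90% of probes (-0.48 to 0.51), and the other 5 lie between -0.22 and 0.22.

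The pattern of APOA1 over the 6 arrays was set beside that of the other 10847 probes tested, by the root mean square difference of their log2 values after centring each probe on its own mean. The most alike apart from the 6 probes of the rule were GI_16507959-S, with a difference of 0.25 (Pearson r = 0.9996), and GI_45505131-S, with 0.50 (r = 0.998). The genes of these probes could not be looked up. GI_16507959-S read 4050 and 4749 in control, 67.1 and 67.1 in the Ha-RAS line and 62.1 and 63.5 in the Ki-RAS line, and GI_45505131-S read 3859 and 3825, 68.1 and 80.7, and 69.8 and 75.6. Neither was detected on a RAS array. By the same measure APOA2 ranked 4 of 10847 with a difference of 1.01, APOH 10 with 1.15, APOB 20 with 1.45, APOC3 50 with 2.03 and APOE 317 with 2.96. The correlations with APOA1 were 0.9997 for APOA2, 0.999 for APOB, 0.996 for APOH, 0.990 for APOC3 and 0.783 for APOE. All of these points share the same 6 arrays, and with 3 lines a correlation near 1 says little more than that a probe was bright in control and dim in both RAS lines. The ranks are limited in the same way, because APOA1 had the lowest fitted difference from control of all tested probes. The other apolipoproteins ranked in the order of their own fitted falls in each RAS line, so the ranks add no separate sign of likeness.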

How the data were processed

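Per the file headers, each array file holds the mean bead signal of a probe (intensity, linear scale), the bead standard deviation (intensity), the bead number and a score for detection. Per the series' design text, the authors applied no normalization to the deposited intensity, and BeadStudio 1.5.13 is named in the submitters' processing notes. Whether the authors subtracted background is not stated by the labels or headers. The deposited series table holds the same intensities (0 differing cells). A further 6 columns, the array standard deviation of each sample, were not used, and 4 control spots were left out.

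Detection p was 1 minus the score. Background was corrected with limma 3.58.1 (R 4.3.3, nec, offset 16), followed by log2 and quantile normalization. The offset alone shrinks folds of dim probes. The correction as a whole enlarged the fitted folds against control of all 6 apolipoproteins, as for APOE in Ha-RAS, 9.98-fold with it and 8.11-fold without. A probe was tested where both arrays of some line had detection p of at most 0.01 (10848 probes, including the 6 apolipoproteins). The fit took 3 group means over 6 arrays (3 residual degrees of freedom), with Benjamini-Hochberg adjustment over all probes in each of 3 comparisons. Its eBayes step drew the variance of each probe toward that of all probes tested (7.1 prior degrees of freedom with the filter). For the 4 genes that passed through control alone, the adjusted p printed against control is that of the same fit with no filter. Precision is limited by the number of arrays. The script was tested on simulated data modelled on probes detected on all 6 arrays, with added shifts smaller than the falls of the undetected genes. That test does not cover signals below detection. Genes named are those of the rule and the 2 probes most alike to APOA1. The genes, lists and tests were chosen with earlier results of these data known. Lists of lipid pathway genes and cell type markers, written by symbol, could not be matched to GI numbers and were not used here. Alternatives covered background, normalization, filter, spread, arrays, replicate block, threshold and each array left out.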

Additional observations from a re-analysis of the deposited data

Results flagged for a closer look

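APOE was singled out because its change from control differed between the RAS lines by a direct test. A call between these lines was common, as 28.1% of all 10848 probes tested were called lower in Ha-RAS. For APOE the log2 difference of Ha-RAS minus Ki-RAS was -2.06 (limma, adjusted p = 4.48e-06), with both Ha-RAS values below both Ki-RAS values. Under the alternatives run, the difference ranged from -2.24 to -1.81 (adjusted p from 1.40e-08 to 9.48e-05), and it passed the threshold in all 17.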

How the results depend on the processing

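With 2 arrays a line and 1 line per isoform, the tests concern these lines. Signals below detection limit the comparison of both RAS lines to APOE. Against control, APOE kept its direction and call under all 17 alternatives run. APOA2, APOC3, APOB and APOH were lower and called with no filter on all 24350 probes; the other alternatives keep a filter that they pass through control, so their calls there are no separate support. The 5 calls against control fell to 1 for Ha-RAS and to 1 for Ki-RAS when only probes detected on all 6 arrays were tested, which leaves APOE alone. Between the RAS lines the count rose from 1 to 4 under cyclic loess, and the cause was not tested. The share of all probes called was not computed for any alternative, the fit with no filter included, so these counts have no share beside them. The APOA1 bounds, 249 for Ha-RAS and 220 for Ki-RAS, were 97.9 and 92.9 without background correction, 122 and 114 with an offset of 50, and 295 and 273 with detection at p of 0.05 or below. The larger offset and the lower detection limit move a bound by construction. The replicate letters of the titles are not said to mark a shared batch, and the replicate differences correlated at -0.18, 0.10 and -0.17 between lines across probes. With the letter as a replicate block the counts were again 5, 5 and 1.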
